A study of Rattus norvegicus with 9 samples.

Results

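Glycolytic enzyme genes of rat chondrocytes were followed through an inflammatory stimulus and a co-culture with dermal fibroblasts. The 10 genes, chosen by symbol, are Hk1, Hk2, Gpi, Pfkl, Pfkp, Aldoa, Pgk1, Eno1, Pkm and Ldha. All 10 were found among the 17588 genes of the table, and all 10 were among the 11732 genes tested, those at 1 FPKM or more in at least 3 of the 9 libraries. Chondrocytes, the cells that make cartilage matrix, were wild type primary cells from rat cartilage. The 9 libraries fell into 3 groups of 3, named DCI, CI and C. In the co-culture group the chondrocytes lay below dermal fibroblasts in a transwell, which keeps the cell types in separate chambers, after stimulation with IL-1β. The IL-1β group had the cytokine and normal culture with no fibroblasts, and the control group had normal culture with no IL-1β. The labels give neither an IL-1β dose nor a culture time. None of the 3 groups had fibroblasts without IL-1β, and none is labelled as a transwell without fibroblasts. Effects of the fibroblasts and of the culture format can therefore not be told apart. Whether replicates came from separate animals or cultures is not stated, so the p-values cover variation between libraries that could be technical only. Levels are in FPKM (fragments per length of transcript and per depth of library), so genes can be compared with each other.

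Glycolysis splits glucose into pyruvate in the cytosol and yields ATP without oxygen. Hexokinases trap glucose as glucose 6-phosphate, phosphofructokinase commits it to the pathway, aldolase splits the hexose, and phosphoglycerate kinase and pyruvate kinase make ATP. Lactate dehydrogenase then turns pyruvate into lactate and regenerates the NAD+ the pathway needs. Cartilage has no blood vessels and little oxygen, and chondrocytes draw most of their ATP from this pathway. Most of these genes are known targets of the hypoxia-inducible factor HIF-1, which binds DNA at a core of ACGTG or GCGTG.

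Start-site windows of 9 of the 10 genes, 13 windows in all, were matched in a RefSeq table of build GRCr8, each from 250 bases before to 50 bases after an annotated start. The table held no window for Pgk1. The 3 windows printed are those of Ldha, which held the most matches to the HIF core, and of Hk2 and Gpi, the genes with the widest range between group means. They lie at chr1:106507842-106508141 on the plus strand for Ldha, chr4:116841226-116841525 on the minus strand for Hk2 and chr1:95993212-95993511 on the minus strand for Gpi. Capitals mark ACGTG or GCGTG on either strand, so that CACGT and CACGC are also marked.
Ldha: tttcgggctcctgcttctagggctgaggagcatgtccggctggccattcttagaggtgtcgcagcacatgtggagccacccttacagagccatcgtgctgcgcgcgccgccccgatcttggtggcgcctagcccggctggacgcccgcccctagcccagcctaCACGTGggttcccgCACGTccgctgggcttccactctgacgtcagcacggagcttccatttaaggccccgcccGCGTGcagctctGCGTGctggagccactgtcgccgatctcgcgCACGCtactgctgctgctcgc
Hk2: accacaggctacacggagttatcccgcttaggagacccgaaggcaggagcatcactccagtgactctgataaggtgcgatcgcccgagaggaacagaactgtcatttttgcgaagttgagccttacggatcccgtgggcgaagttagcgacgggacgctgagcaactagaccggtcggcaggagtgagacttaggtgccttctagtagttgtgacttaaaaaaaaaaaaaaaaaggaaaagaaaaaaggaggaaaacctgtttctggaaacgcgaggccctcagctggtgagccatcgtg
Gpi: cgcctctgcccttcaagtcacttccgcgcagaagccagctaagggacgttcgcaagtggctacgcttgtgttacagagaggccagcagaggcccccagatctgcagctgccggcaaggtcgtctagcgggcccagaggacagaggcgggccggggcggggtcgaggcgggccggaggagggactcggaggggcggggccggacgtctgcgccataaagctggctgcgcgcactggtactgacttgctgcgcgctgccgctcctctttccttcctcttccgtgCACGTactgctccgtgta
The Ldha window held 6 matches, 3 of ACGTG and 3 of GCGTG, where 2 of the ACGTG matches overlap in the palindrome CACGTG. The Gpi window held 1, downstream of the start, and the Hk2 window held 0. Of the 13 windows 8 (61.5%) held at least 1 match, against 61.7% of the 10363 windows of tested genes and 41.6% of all 33469 windows. The share among the enzyme genes' windows was thus close to that among all tested genes. A match is a stretch of letters and not a measured binding site, and a window with none says nothing of sites elsewhere.

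Libraries of all groups were compared for total and for markers of other cells. FPKM summed to 809839 to 811665 in co-culture, 796262 to 832248 with IL-1β and 771058 to 782435 in control libraries, and the absolute depth is unknown. All 15 chondrocyte markers in the table were detected, with summed FPKM of 805 to 856 in co-culture, 782 to 799 with IL-1β and 2079.5 to 2168 in control. With IL-1β 13 of the 15 fell and 2 rose (Sox5 and Prg4), and in co-culture against IL-1β 10 rose and 2 fell, again Sox5 and Prg4. At a limma adjusted p under 0.05, 26.5% of all tested genes rose and 20.2% fell with IL-1β. In co-culture against IL-1β 11.9% rose and 10.1% fell. Col2a1, the main cartilage collagen, averaged 250.04 ± 18.3 FPKM in co-culture, 168 ± 4.45 with IL-1β and 1042 ± 31.96 in control (SD, n = 3), while Prg4, the lubricant of the cartilage surface, averaged 123 ± 8.27, 284 ± 12.7 and 13.7 ± 0.189 FPKM. The sums therefore hide opposite changes.

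The 14 dermal fibroblast markers, several of which chondrocytes also express, summed to 2726 to 2812 FPKM in co-culture, 3029 to 3078 with IL-1β and 4178 to 4371 in control. Collagens made up most of the sum in control and co-culture, and a smaller part with IL-1β. Of 9 tested, 4 rose and 3 fell with IL-1β (26.5% and 20.2% of all tested genes). In co-culture against IL-1β 2 rose and 3 fell (11.9% and 10.1% of all). The matrix proteoglycan genes Dcn and Lum were, like all 10 enzymes, higher in both other groups than in control, with Dcn at 194 ± 9.49, 324 ± 10.8 and 32.4 ± 1.75 FPKM and Lum at 359 ± 36.6, 765 ± 26.1 and 87.8 ± 3.29 FPKM in co-culture, IL-1β and control. The 5 markers not tested (Dpp4, Pi16, Cd34, Entpd1 and Clec3b) did not exceed 1.31 FPKM in any library.

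Skeletal muscle markers, 14 in all, summed to 470.2 to 534 FPKM in co-culture, 489.8 to 505 with IL-1β and 256 to 271 in control. Of 13 tested, 11 rose and 1 (Eno3) fell both with IL-1β and in co-culture against control, with medians of 0.86 log2 in each. Of all tested genes, 26.5% rose and 20.2% fell with IL-1β, and 21.8% and 12.2% in co-culture against control. In co-culture against IL-1β 1 rose (Eno3), 1 fell (Acta1) and 11 were not called, with a median of 0.050 log2. Of all tested genes, 11.9% rose and 10.1% fell in that comparison. Mylpf, a fast-muscle myosin light chain, averaged 180.3 ± 11.7 FPKM in co-culture, 172 ± 10.99 with IL-1β and 80.1 ± 1.55 in control, and Acta1, skeletal muscle actin, averaged 76.2 ± 4.03, 88.5 ± 2.77 and 29.4 ± 2.41 FPKM. Ckm, muscle creatine kinase, was low at 1.603 ± 0.0929, 1.84 ± 0.3004 and 0.557 ± 0.119 FPKM and rose with IL-1β (limma adjusted p = 5.57e-05), and the myosin gene Myh8 did not exceed 0.16 FPKM. Sums of 9 macrophage, 7 endothelial and 2 erythroid markers did not exceed 30.3, 13.9 and 0.22 FPKM, while the 5 adipocyte markers summed to 39.95 to 55.4, 165 to 192 and 20.02 to 26.6 FPKM in co-culture, IL-1β and control, of which Fabp4 was the main part. The part of these cells in the results was not tested, and in bulk RNA fewer cells of a type and less RNA per cell cannot be told apart.

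The comparison of IL-1β with control asked how the cytokine changed the enzyme genes. All 10 rose, by 1.17-fold (Pfkp) to 1.68-fold (Hk2), and in each the 3 IL-1β libraries lay above the 3 control libraries. The members' median change in log2(FPKM + 1) was 0.49, against 0.023 over all tested genes. In limma, 46.7% of all tested genes were called, 26.5% higher and 20.2% lower, at a Benjamini-Hochberg adjusted p under 0.05, and in 56.4% the libraries of the groups did not overlap. None of the 10 reached a 2-fold rise. Together the 10 transcripts made up 1.33% to 1.396% of the library's FPKM in co-culture, 1.42% to 1.44% with IL-1β and 1.13% to 1.14% in control.

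**Figure D1:**
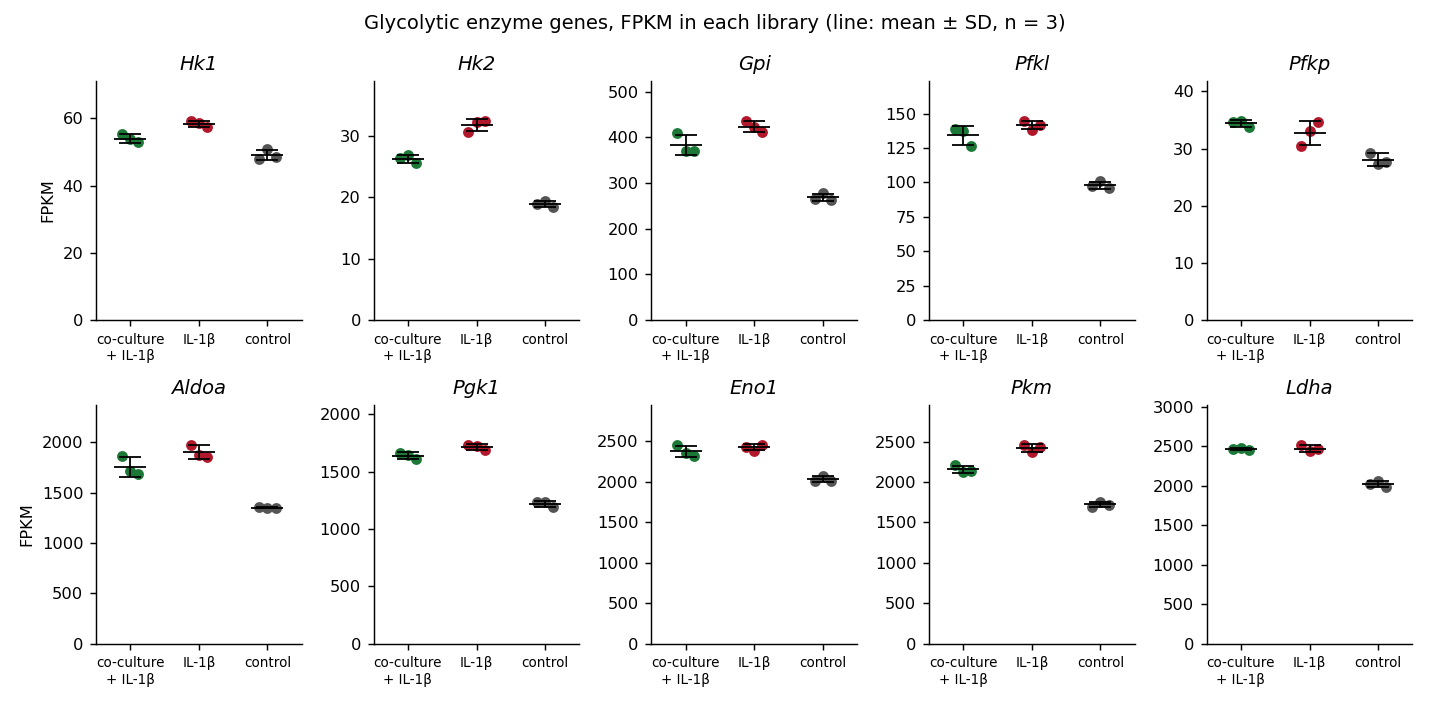
Level of each of the 10 genes in FPKM (linear axis from 0, a scale of its own per gene) in co-culture with IL-1β, IL-1β alone and control. Points are libraries and lines the mean ± SD of 3, and every control library lies below every library of the other groups, in each gene.

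The hexokinases differed in the size of their response. Hk2, the inducible hexokinase that responds to growth factors and insulin in muscle and fat, measured 26.3, 26.8 and 25.5 FPKM in co-culture, 30.6, 32.2 and 32.4 with IL-1β and 18.9, 19.3 and 18.3 in control. Its groups did not overlap, and it rose with IL-1β by 0.72 ± 0.037 (SE) log2, the widest change of the 10 (limma adjusted p = 1.51e-07). Hk1, the housekeeping hexokinase bound to mitochondria in most tissues, measured 55.3, 53.8 and 52.8 FPKM in co-culture, 59.2, 58.5 and 57.3 with IL-1β and 47.9, 50.8 and 48.5 in control. Hk1 was the more abundant of the pair in every library but rose less, by 0.25 ± 0.033 log2 (limma adjusted p = 0.000163). Glucose phosphate isomerase, which turns glucose 6-phosphate into fructose 6-phosphate, comes next in the pathway. Gpi measured 409, 371 and 371 FPKM in co-culture, 436, 422 and 411 with IL-1β and 265, 277 and 264 in control. Its rise with IL-1β, 0.65 ± 0.042 log2, was second to that of Hk2 among the 10 (limma adjusted p = 8.67e-07).

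Phosphofructokinase subunits also rose unequally. Pfkl, the liver-type subunit, measured 139, 138 and 126 FPKM in co-culture, 145, 138 and 142 with IL-1β and 97.3, 101 and 95.9 in control. It rose by 0.53 ± 0.039 log2 with IL-1β (limma adjusted p = 2.35e-06). Pfkp, the platelet-type subunit, measured 34.7, 34.9 and 33.7 FPKM in co-culture, 30.4, 33.1 and 34.6 with IL-1β and 29.3, 27.3 and 27.6 in control. Its IL-1β libraries were the most spread of the 3 groups and the lowest lay just above the highest control library. The rise of 0.21 ± 0.049 log2 (limma adjusted p = 0.00520) was no longer called with libraries rescaled to a common FPKM sum (0.15 log2, adjusted p = 0.0569).

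Genes of the lower part of the pathway stood at far higher levels. Aldoa, the aldolase of muscle and most proliferating cells, measured 1865, 1713 and 1687 FPKM in co-culture, 1976, 1874 and 1849.7 with IL-1β and 1354, 1349.98 and 1346 in control. Pgk1, phosphoglycerate kinase, measured 1667, 1646 and 1613 FPKM in co-culture, 1738, 1722 and 1692 with IL-1β and 1235, 1239 and 1192 in control. Both rose by 0.49 log2 with IL-1β (SE 0.040 and 0.026; limma adjusted p = 4.80e-06 and 1.88e-07). Pkm, pyruvate kinase, whose splice forms PKM1 and PKM2 a gene-level value cannot separate, measured 2209.5, 2129 and 2134 FPKM in co-culture, 2463, 2367 and 2427 with IL-1β and 1696, 1755 and 1715 in control. Pkm rose by 0.49 ± 0.028 log2 as well (limma adjusted p = 3.04e-07), and its groups did not overlap.

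Enolase and lactate dehydrogenase genes were the most abundant of the 10 in control and moved less. Eno1, the ubiquitous enolase, measured 2448, 2348 and 2322 FPKM in co-culture, 2431, 2384 and 2458 with IL-1β and 2010.2, 2070.3 and 2006 in control. It rose by 0.26 ± 0.029 log2 with IL-1β (limma adjusted p = 4.77e-05), a call that ended after quantile normalization (0.065 log2, adjusted p = 0.0791). Ldha, the subunit of lactate dehydrogenase that favours lactate formation, measured 2470.1, 2484 and 2460.1 FPKM in co-culture, 2523, 2436 and 2461 with IL-1β and 2028, 2059 and 1987 in control. Its rise was 0.29 ± 0.025 log2 (limma adjusted p = 7.71e-06). Aldoa, Pgk1, Eno1, Pkm and Ldha are known to have processed pseudogenes in rodents, so their levels are uncertain to the extent that the counting shared reads with such copies.

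The comparison of co-culture with IL-1β alone asked how stimulated chondrocytes differed between transwell co-culture with dermal fibroblasts and normal culture. Of the 10 genes, 4 fell, 0 rose and 6 were not called, against 22.0% called among all tested genes, 10.1% lower and 11.9% higher. The falls were small: Hk2 fell by 0.27 ± 0.037 log2, to 26.2 ± 0.666 FPKM in co-culture against 31.7 ± 0.964 with IL-1β (SD, n = 3; limma adjusted p = 0.000786). Pkm fell by 0.17 ± 0.028 log2, to 2157 ± 45.3 against 2419 ± 48.7 FPKM (limma adjusted p = 0.00231). Gpi fell by 0.14 ± 0.042 log2 (limma adjusted p = 0.0386) and Hk1 by 0.11 ± 0.033 log2 (limma adjusted p = 0.0363). In these 4 genes and in Pgk1 the libraries of the groups did not overlap, which held for 37.6% of all tested genes. The members' median change was -0.094 log2, against 0.016 over all tested genes.

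No difference in Ldha was detected between co-culture and IL-1β alone. It averaged 2471 ± 11.8 FPKM in co-culture and 2473 ± 45.1 with IL-1β (SD, n = 3). The change was -0.0010 log2, with a 95% interval of -0.057 to 0.055 (limma adjusted p = 0.984). For Eno1 the interval ran from -0.096 to 0.033 log2 around -0.031, and for Pfkp from -0.035 to 0.18 around 0.074, the one positive change among the 10. Intervals of the other 3 genes not called lay mostly or wholly below 0: -0.21 to -0.025 for Aldoa (adjusted p = 0.0686), -0.12 to -0.0062 for Pgk1 (adjusted p = 0.109) and -0.16 to 0.011 for Pfkl (adjusted p = 0.198, all limma).

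Of the 4 falls, those of Hk2 and Pkm were called under all alternatives run, and those of Hk1 and Gpi were not. Without control replicate 3, without any 1 IL-1β library and without co-culture replicate 2 or 3, the adjusted p of Hk1 was 0.0509 to 0.108. Gpi lost its call without the same libraries and without control replicate 1 (adjusted p 0.0516 to 0.130). Aldoa was called without co-culture replicate 1, its highest co-culture library (fall of 0.16 log2, limma adjusted p = 0.00956).

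**Figure D2:**
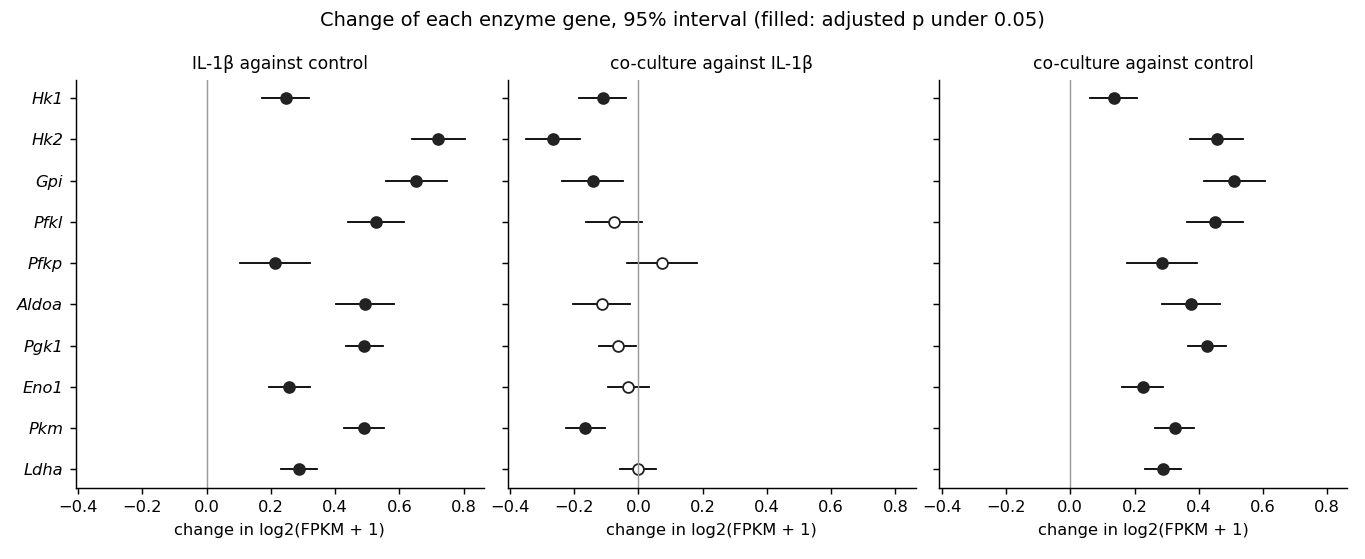
Change of each gene in log2(FPKM + 1) in the 3 comparisons, with 95% intervals from limma and filled points where the adjusted p was under 0.05. With IL-1β the 10 changes run between 0.21 and 0.72, in co-culture against IL-1β between -0.27 and 0.074, and in co-culture against control between 0.14 and 0.51.

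Set against control, the co-cultured chondrocytes still held all 10 genes at higher levels. The comparison asked how far co-cultured cells remained from unstimulated ones. All 10 were called higher. Of all tested genes 33.9% were called, 21.8% higher and 12.2% lower, and in 46.5% the libraries of the groups did not overlap, as in all 10 enzyme genes. Gpi was 1.43-fold higher (0.51 ± 0.042 log2, limma adjusted p = 1.11e-05), Hk2 1.39-fold and Pfkl 1.37-fold. Ldha stood 1.22-fold above control both in co-culture and with IL-1β alone. The smallest difference was that of Hk1, 1.100-fold (0.14 ± 0.033 log2, limma adjusted p = 0.0102), which lost its call with libraries rescaled to a common sum (0.072 log2, adjusted p = 0.136) and with median-of-ratios scaling (0.093 log2, adjusted p = 0.0688). The median of the 10 was 0.35 log2, against 0.043 over all tested genes. The comparisons share libraries, so their changes are set side by side and were not tested against each other.

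Isozyme shares put the unequal changes on one scale within each step. Hk2 made up 32.6 ± 0.543% of the summed FPKM of Hk1, Hk2 and Hk3 in co-culture, 35.1 ± 1.01% with IL-1β and 27.7 ± 0.4204% in control (SD, n = 3). The groups did not overlap, and the share differed between them (exact permutation test of the F statistic over 1680 arrangements, p = 0.00357, the smallest this design allows; adjusted over 6 shares 0.00714). Hk3, the hexokinase of blood cells, stayed at or under 0.38 FPKM. Pfkl made up 69.2 ± 0.802% of the phosphofructokinase FPKM in co-culture, 70.6 ± 0.865% with IL-1β and 66.2 ± 0.355% in control (exact permutation p = 0.00357, adjusted 0.00714). Pfkp moved the other way, with 17.8 ± 0.421%, 16.3 ± 1.11% and 18.96 ± 0.8905% in co-culture, IL-1β and control (exact permutation p = 0.00714, adjusted 0.0107). Without IL-1β replicate 1 the Pfkp share was no longer called (adjusted 0.0643). These shares of 1 sum are not independent of each other.

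Steps led by 1 isozyme shifted by under 1 percentage point, a scale that is compressed where 1 isozyme makes up almost the whole sum. As log2 ratios to the other isozymes of the step, IL-1β minus control was -0.77 for Aldoa, 0.44 for Eno1 and 0.024 for Ldha. The same difference was 0.50 for Hk2, 0.30 for Pfkl and -0.27 for Pfkp. Aldoa made up 99.2 ± 0.0377% of the sum of Aldoa and Aldoc in co-culture, 99.1 ± 0.03901% with IL-1β and 99.5 ± 0.0218% in control (exact permutation p = 0.00357, adjusted 0.00714). Eno1 made up 96.9 ± 0.0947%, 97.5 ± 0.0291% and 96.6 ± 0.257% of the enolase sum in the same order (exact permutation p = 0.0107, adjusted 0.0129). Ldha made up 99.6 ± 0.0538%, 99.5 ± 0.0645% and 99.5 ± 0.00852% of the sum of Ldha and Ldhb, which was not called different (exact permutation p = 0.714, adjusted 0.714).

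**Figure D3:**
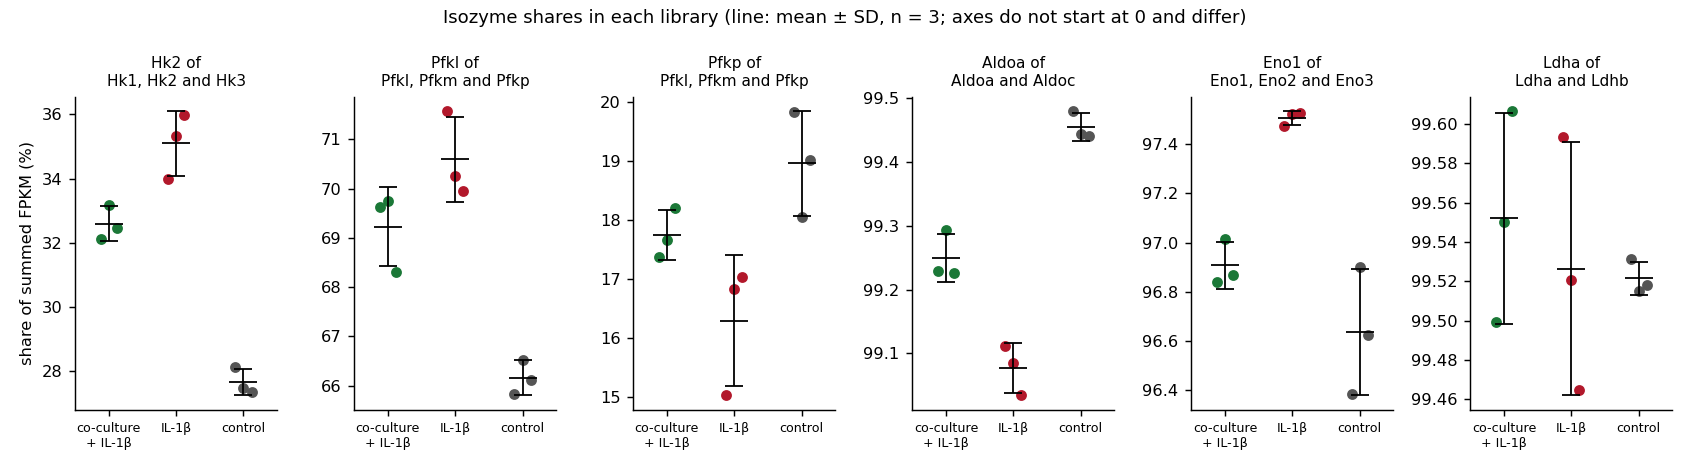
Share of 1 isozyme in the summed FPKM of its step, in percent, in co-culture with IL-1β, IL-1β alone and control; points are libraries, lines mean ± SD of 3, and the axes do not start at 0. The Hk2 share lies at 32.1% to 33.2% in co-culture, 33.99% to 35.98% with IL-1β and 27.4% to 28.1% in control.

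Ranked by FPKM, which is per length, the 10 genes kept nearly the same order in the 3 groups. In co-culture the order was Ldha, Eno1, Pkm, Aldoa, Pgk1, Gpi, Pfkl, Hk1, Pfkp and Hk2, with no overlap between neighbours. With IL-1β the order was the same, but Ldha and Eno1, Eno1 and Pkm, and Pfkp and Hk2 overlapped. In control Eno1 and Ldha overlapped at the top, with 2029 ± 36.1 and 2025 ± 35.98 FPKM, and all other neighbours were apart. Levels ran from 26.2 to 2471 FPKM in co-culture, 31.7 to 2473 with IL-1β and 18.8 to 2029 in control, so the early steps had far fewer transcripts than the late ones.

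Steps with no member and further isozymes changed mainly against control. Of 11 tested genes of this list, 6 rose and 2 fell with IL-1β, where 26.5% of all tested genes were called higher and 20.2% lower. In co-culture against IL-1β 1 rose, 1 fell and 9 were not called, beside 11.9% higher and 10.1% lower among all tested genes. In co-culture against control 6 rose and 1 fell, beside 21.8% and 12.2% of all. Tpi1, triose phosphate isomerase, averaged 1311 ± 36.3 FPKM in co-culture, 1383 ± 55.5 with IL-1β and 899 ± 51.1 in control (SD, n = 3; IL-1β against control 0.62 log2, limma adjusted p = 1.86e-06). Gapdh, often used as a reference gene, averaged 5378 ± 238, 5567 ± 153 and 4672 ± 107 FPKM in the same order, and rose by 0.25 log2 with IL-1β (limma adjusted p = 0.000367) and by 0.19 log2 with libraries rescaled to a common sum. Pgam1, phosphoglycerate mutase, rose by 0.39 log2 with IL-1β (limma adjusted p = 1.57e-05). Aldoc, the brain-type aldolase, rose the most of the list, at 13.3 ± 1.15 FPKM in co-culture, 17.7 ± 0.366 with IL-1β and 7.403 ± 0.2801 in control. It also fell in co-culture against IL-1β, by 0.39 log2 (limma adjusted p = 0.00121). Eno3, the muscle-type enolase, ran opposite, with 40.3 ± 1.69, 31.1 ± 0.578 and 50.2 ± 0.601 FPKM, a fall with IL-1β (limma adjusted p = 1.79e-07) and a rise in co-culture against IL-1β (limma adjusted p = 8.49e-05). Eno3 fell where 11 of the other muscle markers rose. The other gene of the list that fell with IL-1β was Bpgm, by 0.20 log2 (limma adjusted p = 0.0196). Eno2 averaged 35.5 ± 4.01 FPKM in co-culture, 30.9 ± 1.05 with IL-1β and 20.35 ± 4.59 in control. Eno2 rose by 0.60 log2 with IL-1β (limma adjusted p = 0.00493), and Pfkm by 0.25 log2 (limma adjusted p = 0.00109).

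Transporters stand at both ends of the pathway. Of 9 tested genes, 5 rose and 2 fell with IL-1β (26.5% and 20.2% of all tested genes), and 4 fell and 2 rose in co-culture against IL-1β (10.1% and 11.9% of all). With IL-1β and in co-culture against IL-1β, the changes of Slc2a1 and Slc16a1 were wider than those of the 10 enzymes. In co-culture against control Slc2a1, at 1.38-fold, was below Gpi and Hk2. Slc2a1, the glucose transporter GLUT1, fell in co-culture to 94.2 ± 2.65 FPKM, against 141 ± 2.13 with IL-1β (a fall of 0.57 log2, limma adjusted p = 1.76e-06), and stood at 68.2 ± 1.77 in control. Slc16a1, the lactate and pyruvate transporter MCT1, averaged 91.6 ± 6.47 FPKM in co-culture, 158 ± 3.79 with IL-1β and 49.1 ± 2.12 in control, a rise of 1.66 log2 with IL-1β and a fall of 0.78 log2 in co-culture against IL-1β (limma adjusted p = 2.55e-09 and 4.83e-06). Slc16a3, the lactate exporter MCT4, averaged 246 ± 9.15, 275 ± 2.82 and 176 ± 1.23 FPKM. The genes that rose in co-culture against IL-1β were Slc16a7, the monocarboxylate transporter MCT2, and Slc2a3, the glucose transporter GLUT3, the second of which was named after its values were seen. Slc2a3 averaged 5.60 ± 0.435 FPKM in co-culture, 3.12 ± 1.05 with IL-1β and 3.12 ± 0.249 in control.

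Genes that regulate the pathway moved in part. Of 14, 6 rose and 1 fell with IL-1β (26.5% and 20.2% of all tested genes), and 4 fell and 0 rose in co-culture against IL-1β (10.1% and 11.9% of all). Hif1a, the oxygen-regulated subunit of HIF-1, averaged 91.6 ± 4.77 FPKM in co-culture, 126 ± 0.632 with IL-1β and 67.97 ± 1.57 in control, and was called in both comparisons (limma adjusted p = 3.24e-08 with IL-1β and 2.37e-05 in co-culture). Pdk1, a kinase that switches off pyruvate dehydrogenase, averaged 66.9 ± 1.95, 73.8 ± 2.39 and 43.7 ± 1.603 FPKM. Its fall in co-culture against IL-1β (limma adjusted p = 0.0285) was not called without IL-1β replicate 1 or 3 or co-culture replicate 1 or 3 (adjusted p 0.0584 to 0.0954). Pfkfb3, which makes the activator of phosphofructokinase fructose 2,6-bisphosphate, averaged 17.6 ± 0.556 FPKM in co-culture, 20.8 ± 0.181 with IL-1β and 18.6 ± 0.257 in control. Its rise with IL-1β, 0.15 log2, was not called with libraries rescaled to a common sum (adjusted p = 0.0979) or after quantile normalization (adjusted p = 0.0534). Pfkfb3 was called lower in co-culture against IL-1β, with a change of -0.23 log2 (limma adjusted p = 0.00148). The related Pfkfb4 averaged 5.403 ± 0.546, 6.92 ± 0.173 and 3.43 ± 0.304 FPKM, with a rise of 0.84 log2 with IL-1β (limma adjusted p = 8.52e-06). In co-culture against IL-1β Pfkfb4 was also called lower, with a change of -0.31 log2 (limma adjusted p = 0.0149).

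Several branches leave glycolysis, and their counts stand beside 26.5% of all tested genes called higher and 20.2% lower with IL-1β, and 11.9% higher and 10.1% lower in co-culture against IL-1β. Of 8 pentose phosphate genes, 6 rose with IL-1β and 4 fell in co-culture against IL-1β, and 0 moved the other way. Of 11 glycogen and UDP-sugar genes, 7 rose with IL-1β and 5 fell in co-culture against IL-1β, with Gys1, glycogen synthase, at 54.5 ± 0.995, 68.5 ± 1.002 and 36.5 ± 0.506 FPKM. Of 7 hexosamine genes, 5 rose with IL-1β and 2, Gfpt2 and Uap1, fell in co-culture against IL-1β. The 5 were Gfpt2, Gnpnat1, Uap1, Ogt and Mgea5, while Gfpt1 and Pgm3 were not called. Serine and glycerol branch genes split 3 higher and 4 lower of 8 with IL-1β, and in co-culture against IL-1β 3 rose (Phgdh, Psat1 and Psph, the serine synthesis enzymes) and 0 fell. Gluconeogenesis genes numbered 3 tested, of which 2 rose and 1 fell with IL-1β and 1 fell in co-culture. Of 23 genes of pyruvate entry and the tricarboxylic acid cycle, 6 rose and 3 fell with IL-1β, a share close to that of all tested genes for higher calls and below it for lower ones, with a median of -0.027 log2. Those that fell were Pdha1, Pdhb and Dlat, subunits of pyruvate dehydrogenase, while Dld, another subunit of that complex, rose by 0.18 log2 (limma adjusted p = 0.00196) and Pdhx, a further one, was not called (0.20 log2, limma adjusted p = 0.189). In co-culture against IL-1β 5 of the 23 rose and 0 fell.

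Hypoxia targets outside glycolysis mostly rose with IL-1β and fell in co-culture against IL-1β. Of 14 tested, 12 rose and 1 (P4ha1) fell with IL-1β, with a median of 0.83 log2 (26.5% and 20.2% of all tested genes were called higher and lower), and 10 fell and 0 rose in co-culture against IL-1β (10.1% and 11.9% of all), with a median of -0.31 log2 beside -0.094 for the 10 enzymes. Egln3, an oxygen-sensing hydroxylase, averaged 38.1 ± 5.55 FPKM in co-culture, 118 ± 0.917 with IL-1β and 2.15 ± 0.2100 in control. Ddit4, a stress-induced inhibitor of mTORC1, averaged 33.1 ± 0.7998, 59.6 ± 1.895 and 21.2 ± 0.804 FPKM. The difference between the lists was not tested.

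**Figure D4:**
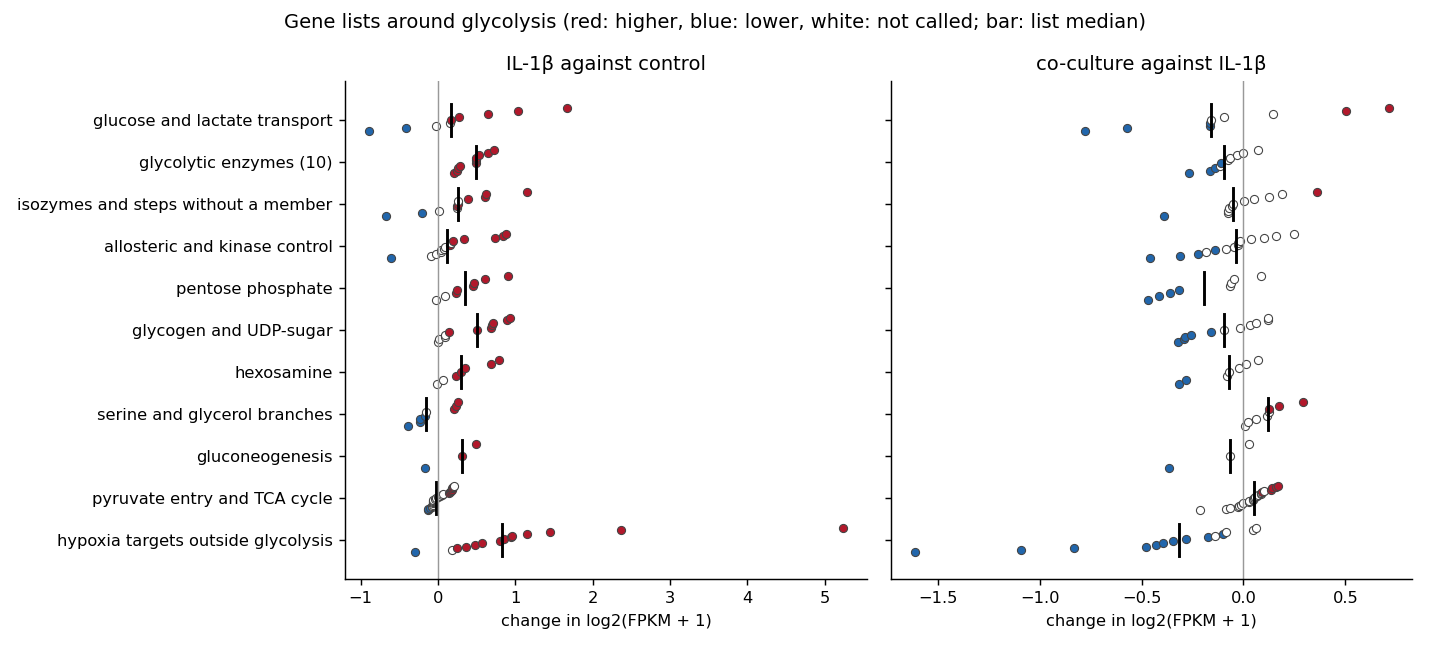
Change in log2(FPKM + 1) of each tested gene (points) by list, with IL-1β against control on the left and co-culture against IL-1β on the right (the scales differ). Red marks genes called higher, blue lower and white not called, and bars are list medians, at 0.49 and -0.094 for the 10 enzymes and 0.83 and -0.31 for hypoxia targets outside glycolysis.

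Genes with the most similar course were sought for Hk2, Gpi and Pfkl, the members with the widest range of group means. The search left out all members, so another member could lie closer than the genes named. Likeness was the root mean square difference in log2(FPKM + 1) over the 9 libraries, each gene centred on its mean. Closest to Gpi was Slc16a3, at 0.033 log2, followed by Ifitm2 (0.034) and Amz1 (0.044). Closest to Hk2 were Rffl (0.034), Cd82 (0.043) and Nt5e (0.045). Closest to Pfkl among genes other than the members were Tubb2b (0.043), Mif (0.048) and Tmbim4 (0.048). Rffl, for instance, averaged 9.27 ± 0.133 FPKM in co-culture, 11.5 ± 0.272 with IL-1β and 6.74 ± 0.3704 in control. All 9 libraries and their groups are shared between the genes compared, so this is a description only.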

How the data were processed

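Messenger RNA of rat primary chondrocytes was measured in 9 libraries. Per the labels' protocols, libraries were made from polyadenylated RNA. The authors deposited 1 table of FPKM values for 17588 genes, with replicates kept apart, per the file headers. The sources used here do not name the aligner, counting tool, annotation or strand setting, and the submitters' processing notes name GRCm38, a mouse build. Of the gene IDs 93.2% were found in a rat GRCr8 table, all 10 enzyme genes among them. The table holds no counts, so no count test was run and depth is unknown.

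Values were tested as log2(FPKM + 1), a pseudocount of 1, with no rescaling, which understates the change of low genes. Genes at 1 FPKM or more in at least 3 libraries (11732) were fitted with limma 3.58.1 (R 4.3.3) over all 9 libraries as a two-sided test with the variance trended on the mean level, and p-values were adjusted by Benjamini-Hochberg over all of them within each comparison. Errors of log2 changes are standard errors of that fit, folds beside FPKM are ratios of mean FPKM, and the fit was tested on simulated data. Isozyme shares were tested by an exact permutation test over 3 groups, since 3 against 3 libraries cannot go below p = 0.1. Alternatives were a pseudocount of 0.1, no filter or a mean of at least 5 FPKM, 3 rescalings, no trend, only the 2 groups compared, a replicate block and leaving out each library.

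The genes named are the 10 enzymes, fixed isozymes, transporters and regulators, and up to 3 genes per list and comparison with the smallest p; others in counts of 5 or fewer were named after their values were seen. The members and lists were chosen with earlier results of these data known.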

Additional observations from a re-analysis of the deposited data

How the results depend on the processing

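All 10 enzyme genes kept their direction with IL-1β and in co-culture against control under every alternative run. The number called was 9 or 10 of 10 in both comparisons, and the 4 losses of a call were Pfkp, Eno1 and Hk1 under the rescalings named above. Rescaling moved the median change of all tested genes with IL-1β to between -0.039 and -0.0015 log2, from 0.023, and that of the 10 enzymes to between 0.35 and 0.46 log2, from 0.49. In co-culture against IL-1β the number of enzyme genes called lower moved from 4 to 2 with no trend and with only the 2 groups in the fit, and it ranged from 2 to 5 with 1 library left out. The cause was not tested. Fits with the replicate number as a block (replicate block) called 10, 4 and 10 enzyme genes in the 3 comparisons; Hk1 lost its call in co-culture against IL-1β (adjusted p = 0.0577) and Aldoa gained one (adjusted p = 0.0487). Deviations from group means correlated at -0.091 to 0.085 across genes for the 9 same-numbered pairs, and at -0.077 to 0.089 for other pairs. Same-numbered libraries were thus no more alike than others by this measure. Whether they were paired is not stated, and why calls changed under the block was not tested. Counts over all genes stayed within 1.5 times of 5479, 2581 and 3981 under the alternatives run. With IL-1β the split was 3109 higher and 2370 lower, against 2249 and 3188 with a common sum, 2723 and 2732 with median-of-ratios scaling and 2291 and 3332 with quantile normalization. In co-culture against IL-1β it was 1393 and 1188, and it turned to 1156 and 1294 with median-of-ratios scaling. In co-culture against control it was 2554 and 1427, against 1541 and 2009, 1854 and 1869, and 1641 and 2076 with the 3 scalings in the order given for IL-1β. The 5 isozyme shares called kept their call as log2 ratios and with permutation within replicate numbers (adjusted p = 0.0333). Within replicate numbers each of the 5 had an exact permutation p = 0.0278, the smallest that the 216 arrangements allow. Leaving out 1 library, the difference of IL-1β minus control ran from -3.12 to -2.03 percentage points for the Pfkp share and from -0.029 to 0.036 for the Ldha share, which was not called and turned negative without IL-1β replicate 1 (-0.029). Depth is unknown, so no floor could be set for genes at 0.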
